A study of Homo sapiens with 8 samples.

Results

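Amino acid transporters are the membrane proteins that bring amino acids into the cell, exchange them across the plasma membrane and move them out of the lysosome. The genes described here were the 40 protein-coding genes, of 20046 in GENCODE release 44, whose symbols place them in 6 solute carrier families (SLC1, SLC3, SLC7, SLC36, SLC38 and SLC43). The rule used gene symbols and no measured value, but it was chosen with earlier results of these data known. It was known then that SLC38A1 is among the genes with the most peaks. Binding of the RNA-binding protein IGF2BP1 to their transcripts was read from the 2 deposited eCLIP peak lists, one for H1299 cells given DMSO and one for H1299 cells given AVJ16, a small molecule inhibitor of IGF2BP1. Of the 40 genes, 15 had at least 1 peak on the same strand in either list and 25 had none.

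H1299 is a lung carcinoma cell line, labelled as wild type in genotype. Cells received 1.5 µM AVJ16 or 0.01% DMSO for 24 h and were then crosslinked at 254 nm with 400 mJ/cm2. In each treatment 2 libraries were immunoprecipitated with an antibody to IGF2BP1 (IP) and 2 were size-matched inputs (SMInput) that skipped this step, which makes 8 libraries in all prepared in 2 batches from a single thaw of cells. The replicates, and with them the batches, were pooled in both lists, so each peak has 1 log2 fold enrichment of IP over SMInput and 1 -log10 p per treatment. No spread between replicates can be given, the read depth is unknown, and no difference between DMSO and AVJ16 below was tested. All intervals cover counting error over genes or peaks, at 95% confidence, and peaks that touch one another are not independent. Cell identity cannot be checked in lists of bound RNA, and RNA levels were not analysed here.

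The families differ in what they carry. SLC1 proteins take up glutamate or exchange neutral amino acids, the SLC7 family holds the cationic amino acid transporters and the light chains that pair with SLC3 proteins, SLC38 proteins carry glutamine and other neutral amino acids with sodium, and SLC36 proteins carry small amino acids with protons. Amino acid supply is read by the kinase complex mTORC1 at the lysosome. IGF2BP1 binds mainly in 3'UTRs, where its KH domains contact CA-rich elements, and it has been described as a reader of N6-methyladenosine, a mark placed at sequences that include GGAC.

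Stretches of strongly enriched peaks from 8 of the bound transporters are shown first, since the values below refer to them. They are taken from the DMSO list, with 1 from the AVJ16 list, and are not in every case the highest peak of the gene. All are RNA sequences of GRCh38, written from 5′ to 3′, and capitals mark the motif GGAC and the CAU motifs, which are CAUA, CAUC and CAUU. Where a peak was longer than 30 bases its middle 30 are shown, and the bases given are those of the coordinates.
SLC7A1, DMSO peak, chr13:29510791-29510808, minus strand: ccCAUUuuuacacagacc
SLC7A1, AVJ16 peak with no DMSO peak, chr13:29510998-29511027, minus strand: uggcugguguuugcagucccacguggcaug
SLC38A1, DMSO peak, chr12:46188314-46188336, minus strand: aucuauuccCAUCcagagaCAUU
SLC38A9, DMSO peak, chr5:55625929-55625958, minus strand: gagucuuaaucucuauuugaagaaaaagua
SLC1A3, DMSO peak, chr5:36686783-36686812, plus strand: uauaCAUCuagcacagcugugaGGACagac
SLC1A4, DMSO peak, chr2:65022120-65022149, plus strand: gcugcacugcagcaaaaacaaaaccaccac
SLC7A5, DMSO peak, chr16:87832751-87832780, minus strand: ggccagGGACccaggugugccugugcuccu
SLC38A2, DMSO peak, chr12:46361053-46361082, minus strand: CAUCugaugccaguguugaguaaacucaac
SLC7A11, DMSO peak, chr4:138166611-138166640, minus strand: aacuguagagCAUUaggCAUCugagagcca
All of these lie in 3'UTRs. SLC7A5 and SLC1A3 are the transcripts among them with a GGAC inside the stretch shown.

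IGF2BP1 was found on 14 of the 40 transporter genes with DMSO (35.0%, Wilson interval 22.1 to 50.5%) and on 15 with AVJ16 (37.5%, 24.2 to 53.0%). Over all protein-coding genes 25.8% had a peak with DMSO and 23.2% with AVJ16, within the intervals for the transporters on the DMSO side and below the interval on the AVJ16 side. Of the 328 other solute carrier (SLC) genes, 30.5% had a peak with DMSO and 29.6% with AVJ16, within the transporter interval in both lists. The same 14 genes were bound in both lists, and SLC38A6 was added with AVJ16. The order of the lists turned under stricter limits, with 14 genes for DMSO and 13 for AVJ16 at 2 or more peaks per gene, and 11 and 10 at a log2 enrichment of at least 4. The bound transporters belonged to 4 families. SLC1 had 3 of 7 genes bound in each list, SLC7 had 5 of 13, SLC36 had 1 of 4, and SLC38 had 5 of 11 with DMSO and 6 with AVJ16. None of the 2 SLC3 genes and none of the 3 SLC43 genes had a peak in either list.

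**Figure D1:**
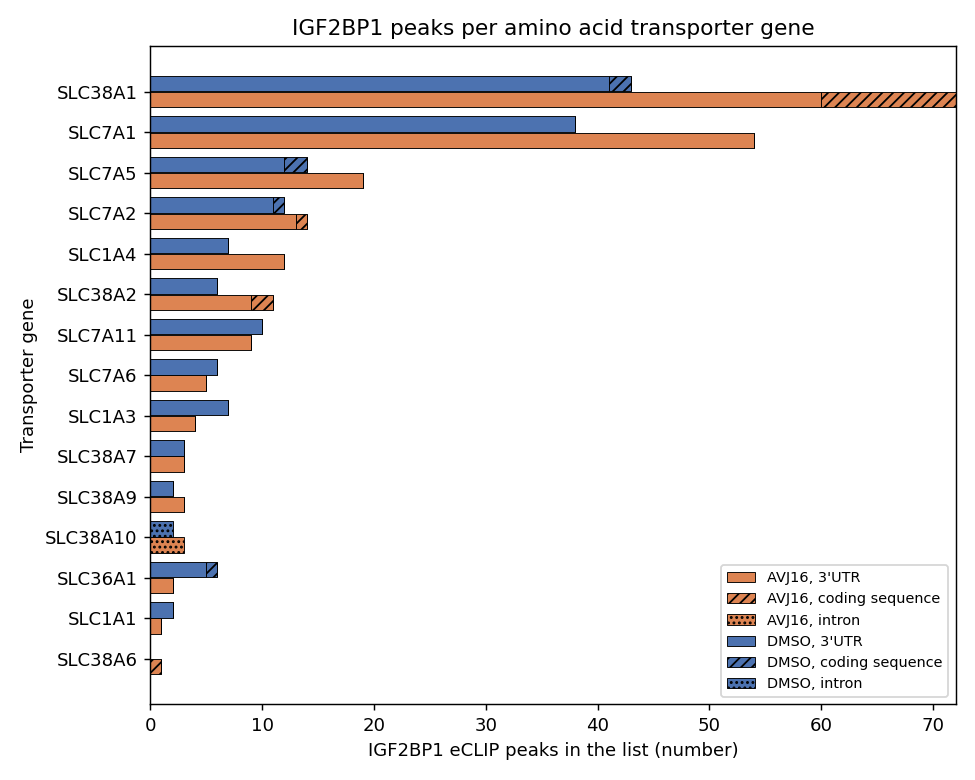
Number of IGF2BP1 eCLIP peaks (x axis) per transporter gene (y axis) in the DMSO and AVJ16 lists, split by region of the transcript, for the 15 genes with a peak. SLC38A1 and SLC7A1 hold 81 of 158 peaks with DMSO and 126 of 213 with AVJ16.

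The transporter genes held 158 peaks with DMSO and 213 with AVJ16. Binding was uneven: SLC38A1 and SLC7A1 together took 51.3% of these peaks with DMSO and 59.2% with AVJ16, and the other bound genes shared 77 and 87 peaks. The plot of peaks per gene shows the long step from these 2 genes to the rest. Peaks were more numerous with AVJ16 in 9 genes, less numerous in 5 and equal in number in 1. Over the 5743 protein-coding genes with a peak, 2102 had more peaks with AVJ16, 2609 had more with DMSO and 1032 had equal numbers. The other SLC genes leaned the same way as the transporters, with 48 that had more with AVJ16, 39 with DMSO and 22 equal. A count of peaks also reflects how finely a bound stretch was split, since the median transporter peak was 49 nt long with DMSO and 38 nt with AVJ16. Counted as bases, peaks covered 8752 nt of these genes with DMSO and 9408 nt with AVJ16, a ratio of 1.07, while over the whole lists the ratio was 0.907. Without SLC38A1 and SLC7A1 the covered length was 5212 nt with DMSO and 4947 nt with AVJ16.

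Nearly all transporter peaks were in 3'UTRs. With DMSO 150 of 158 peaks (94.9%, 90.3 to 97.4%) and with AVJ16 194 of 213 (91.1%, 86.5 to 94.2%) were assigned there, against 74.6% and 75.0% of all peaks in the lists. Coding sequence held 6 peaks with DMSO (3.80%) and 16 with AVJ16 (7.51%), against 17.3% and 20.3% of all peaks. Of the 16, 12 were in SLC38A1. The only intronic peaks, 2 with DMSO and 3 with AVJ16, were those of SLC38A10, and no transporter peak was assigned to a 5'UTR. Any peak that touched coding sequence was assigned to it. Peaks across either end of the coding sequence thus counted as coding, even where most of their bases lay in a UTR. The bound transporters had long 3'UTRs, with a median of 2926 nt (204 to 7862 nt) against 829 nt (112 to 9692 nt) in the 25 unbound ones. Bound genes had the longer median 3'UTR over all protein-coding genes as well, 1945 nt against 721 nt.

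Of the 158 DMSO peaks, 128 (81.0%, 74.2 to 86.4%) overlapped an AVJ16 peak by at least 1 nt, where the share over all DMSO peaks was 66.2%. In the other direction 153 of 213 AVJ16 peaks (71.8%, 65.4 to 77.4%) overlapped a DMSO peak, where the share over all AVJ16 peaks was 70.8%. The high DMSO share came from SLC38A1 and SLC7A1, as 52 of the 77 DMSO peaks of the other genes (67.5%) were shared. When touching and overlapping peaks of both lists were joined, the transporters had 127 sites, of which 63 were in both lists, 23 in the DMSO list alone and 41 in the AVJ16 list alone. SLC38A1 gave 0 of the sites with DMSO alone and 14 of those with AVJ16 alone, and SLC7A1 gave 2 and 7. The larger number with AVJ16 alone thus rested on these genes. No such count over the whole lists is given here.

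The enrichment at a shared peak was compared as AVJ16 minus DMSO on the log2 scale, with each DMSO peak paired to the AVJ16 peak it overlapped most. The median difference over the 128 shared transporter peaks was 0.11 (0.05 to 0.22), where the median over all 14759 shared peaks was -0.06. By more than 0.5, 14 transporter peaks (10.9%, 6.63 to 17.5%) were lower with AVJ16, against 20.1% of all shared peaks, and 23 (18.0%, 12.3 to 25.5%) were higher, against 12.6%. The remaining 91 moved by no more than 0.5. SLC38A1 and SLC7A1 gave 15 of the 23 higher peaks and 3 of the 14 lower ones. Without them the median difference was -0.03 (-0.15 to 0.20) over 52 peaks, with 11 lower and 8 higher, so the upward shift of the transporter peaks as a group rested on those 2 genes.

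**Figure D2:**
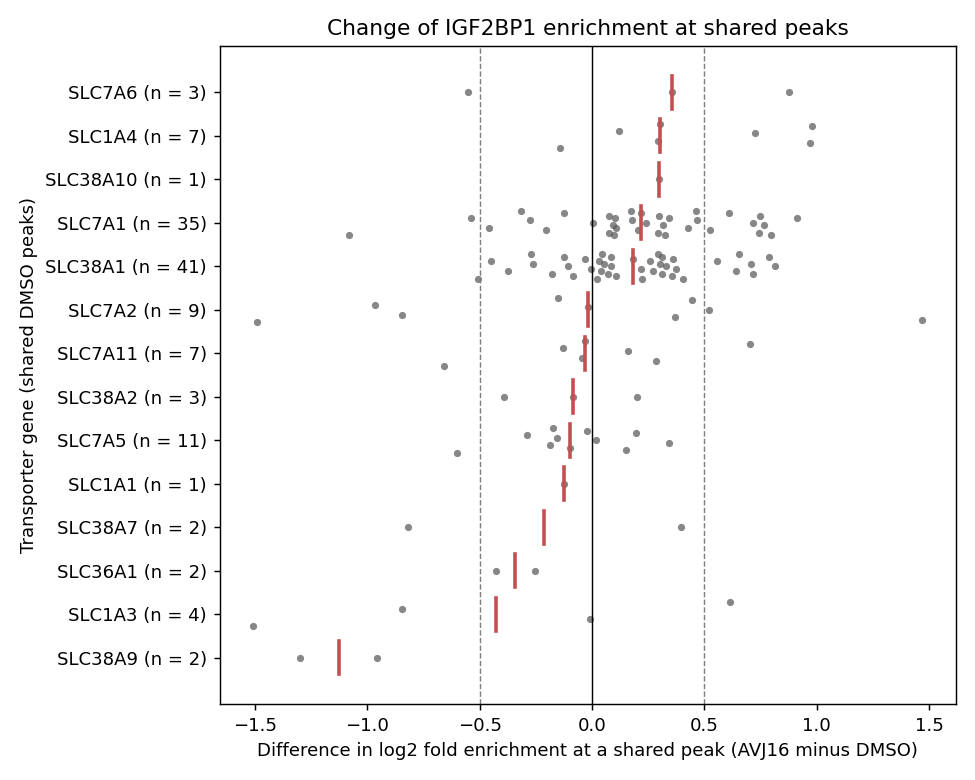
Difference in log2 fold enrichment (AVJ16 minus DMSO, x axis) at each shared DMSO peak, by transporter gene (y axis), with red bars at the gene medians and dashed lines at -0.5 and 0.5. Gene medians run from -1.13 in SLC38A9 to 0.36 in SLC7A6, and the points of SLC38A1 and SLC7A1 lie mostly to the right of 0.

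SLC38A1 encodes a sodium-coupled transporter of glutamine and other neutral amino acids (chr12:46183063-46270017, minus strand). It had 43 peaks with DMSO, which ranked it 10 among all genes, and 72 with AVJ16, which ranked it 2. Its excess of 29 peaks with AVJ16 was the second largest of any gene. The covered length differed less than the count, with 1864 and 2403 nt or a factor of 1.29, and the share of its 5910 nt 3'UTR under a peak went from 30.6% to 37.4%. With 6.94 peaks per kb of 3'UTR in DMSO it was denser than 97.7% of the 3568 genes with a 3'UTR peak and a 3'UTR of at least 1000 nt, whose median was 0.985 per kb. Such a density also reflects peak length. The SLC38A1 3'UTR peaks with DMSO had a median of 37 nt, against 69 nt over all 3'UTR peaks. By share of the 3'UTR covered with DMSO, SLC7A1 (33.1%) and SLC38A9 (31.6%) stood above it among the transporters.

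Joined over both lists, SLC38A1 had 29 sites, of which 15 were in both lists, 14 in the AVJ16 list alone and 0 in the DMSO list alone. The sites with AVJ16 alone had best log2 enrichments of 3.04 to 4.49 with a median of 3.35. At the sites in both lists the median with AVJ16 was 3.84. These values are not alike, since a best value can rise with the number of peaks joined in a site. Most sites with AVJ16 alone held 1 peak, and the sites in both lists held up to 11 AVJ16 peaks. Of the DMSO bases under a peak, 86.9% were also under an AVJ16 peak. The 3'UTR peaks formed a first block in the 2229 nt after the last coding base and a last block from 4301 to 5834 nt. No peak of either list lay in between, and the gaps inside the blocks were shorter.

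The strongest SLC38A1 peaks sat in the first block. The DMSO peak at chr12:46188314-46188336, printed above, had a log2 enrichment of 5.04, and the AVJ16 peak over nearly the same bases had 5.09. The AVJ16 list had its highest value of the gene, 5.12, in the adjoining 13 nt at chr12:46188302-46188314. The tops of the 2 lists thus stood at the same place and at nearly the same height. Over the 41 shared peaks the median difference was 0.18 (0.04 to 0.31), with 7 peaks higher by more than 0.5 and 1 lower. The median was 0.096 over the 12 peaks left at a log2 enrichment of at least 4, 0.086 with pairing from the AVJ16 peaks and 0.085 per nucleotide covered in both lists. The highest differences were 0.82 at chr12:46188665-46188707, from the first block, and 0.79 at chr12:46184615-46184632, from the last. The AVJ16 partner of the former, at 4.14, was also the partner of the adjoining DMSO peak, where the difference was 0.30. The peak that was lower, with a difference of -0.51, lay at the end of the coding sequence at chr12:46188983-46189008, and its value was 4.36 with DMSO and 3.85 with AVJ16.

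**Figure D3:**
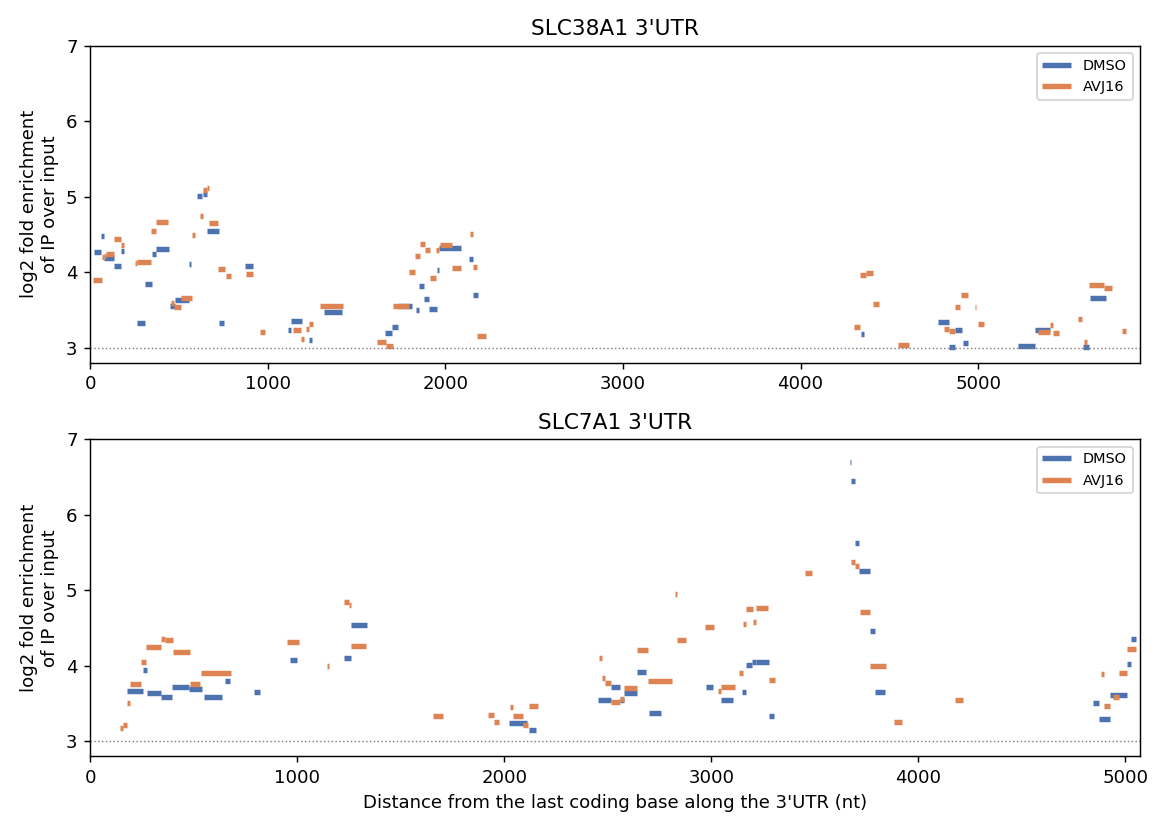
IGF2BP1 peaks along the 3'UTRs of SLC38A1 and SLC7A1, each drawn as a line over its bases (x axis, distance from the last coding base in nt) at its log2 fold enrichment (y axis), in blue with DMSO and orange with AVJ16, with the dotted line at 3 where both lists begin. SLC7A1 reaches 6.70 with DMSO near 3668 nt, and SLC38A1 has no peak between 2229 and 4301 nt.

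In the coding sequence of SLC38A1 there were 2 peaks with DMSO and 12 with AVJ16. The AVJ16 list had 3 peaks over the start codon and the bases just after it (3.07 to 3.15 on the log2 scale), and 4 peaks between coding bases 369 and 403 (3.34 to 3.66) that lay on both sides of an exon junction. The pieces on the 2 exons were listed as separate peaks, although they are close together in the spliced mRNA. A site at coding bases 1210 to 1240 was in both lists, at 3.27 with DMSO and 3.58 with AVJ16, and it is shown because it is the one interior coding site that the lists share.
SLC38A1, AVJ16 coding peak, chr12:46197945-46197971, minus strand: caacuuguuggugaucuuCAUAcccuc
The remaining AVJ16 coding peaks were 1 of 5 nt at bases 1317 to 1321 and 3 at the end of the coding sequence, of 3.85 to 4.14, where the DMSO list had its other coding peak. Most of these peaks were short, from 1 to 64 nt.

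SLC7A1 encodes a transporter of the cationic amino acids arginine, lysine and ornithine (chr13:29509414-29595688, minus strand), and the 3'UTR of its mRNA is known as a target of regulation after transcription. The DMSO list gave it 38 peaks and the AVJ16 list 54, and every one was in the 3'UTR. The gene ranked 16 by number of peaks with DMSO and 4 with AVJ16, and its excess of 16 peaks with AVJ16 ranked 7. Peaks covered 33.1% of the 5069 nt 3'UTR with DMSO and 40.6% with AVJ16, and 92.7% of the bases under a DMSO peak were under an AVJ16 peak as well.

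Within SLC7A1 the strongest site and most of the others differed in opposite directions. The strongest transporter site in the DMSO list lay 3668 to 3843 nt after the last coding base. A peak of 7 nt there, at chr13:29510809-29510815, had a log2 enrichment of 6.70 with DMSO and no AVJ16 peak over it. The adjoining 18 nt, printed above, had 6.45 with DMSO and 5.37 with AVJ16, a difference of -1.08. The next pieces of the same site went from 5.63 to 5.32 and from 5.26 to 4.72, and only the piece farthest downstream was higher with AVJ16, at 4.00 against 3.65. The AVJ16 peak of 4.00 also lay over the piece before it, which had 4.46 with DMSO. AVJ16 enrichment was thus lower at the top of this site and it remained the highest of the gene in both lists.

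Elsewhere in the SLC7A1 3'UTR the shared peaks were mostly higher with AVJ16. The site 3136 to 3308 nt after the last coding base had 5 shared peaks, 4 of them higher by more than 0.5, with a median difference of 0.72 and the largest, 0.91, at chr13:29511315-29511336. The site at 145 to 678 nt, the longest of any transporter with 534 nt, had 8 shared peaks that were all higher, by 0.07 to 0.76. The AVJ16 list also had a lone peak of 5.23 at chr13:29510998-29511028, printed above, and a pair of adjoining peaks of 4.96 at chr13:29511648-29511660 and 4.34 at chr13:29511607-29511647, where the DMSO list had none. Over all 35 shared peaks the median difference was 0.22 (0.10 to 0.34). By more than 0.5, 8 peaks were higher and 2 lower, and both lower peaks belonged to the strongest site. Of the 1024 protein-coding genes with at least 5 shared peaks, 41.8% had a median above 0, and 88.1% had a lower median than SLC7A1 and 84.3% a lower median than SLC38A1.

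SLC7A5 is the light chain of the leucine and large neutral amino acid exchanger LAT1 (chr16:87830023-87869507, minus strand). There were 14 DMSO and 19 AVJ16 peaks. The top peaks were in 1 site 109 to 228 nt after the last coding base, with a best log2 enrichment of 4.50 with DMSO and 4.21 with AVJ16. Over its 11 shared peaks the median difference was -0.10 (-0.29 to 0.20), with 1 lower by more than 0.5 and none higher. Both DMSO peaks assigned to the coding sequence of SLC7A5, of 3.12 and 3.08, were close to the lower limit of the list. Neither had an AVJ16 peak over it. The peak of 3.12 began upstream of the coding sequence and reached only to coding base 11.

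SLC7A11 encodes the cystine and glutamate exchanger xCT, which supplies cysteine for glutathione (chr4:138164097-138242349, minus strand). Its 3'UTR of 7862 nt is the longest of the bound transporters, and 7.62% of it was under a DMSO peak. The 10 DMSO and 9 AVJ16 peaks formed 2 groups, one in the first 357 nt and one from 5310 to 6550 nt after the last coding base. The best peak had a log2 enrichment of 4.09 with DMSO and the best in the AVJ16 list 4.07, at different sites. At the DMSO one, chr4:138166605-138166647, the AVJ16 value was 3.43. Over 7 shared peaks the median difference was -0.03, with 1 higher and 1 lower by more than 0.5.

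SLC7A2, another cationic amino acid transporter, had 12 DMSO and 14 AVJ16 peaks (chr8:17497088-17570573, plus strand). The differences at its shared peaks spanned a wider range than in any other transporter, from -1.49 to 1.47, with a median of -0.02 over 9 peaks. The lowest stood 1880 to 1977 nt after the last coding base, where the log2 enrichment was 4.71 with DMSO and 3.22 with AVJ16. The -log10 p values there were 6.98 and 7.71, against 25.1 and 27.5 at the highest difference. The highest stood at 4039 to 4151 nt, where the values were 4.43 and 5.90, and the neighbouring site at 4238 to 4364 nt went from 5.18 to 4.33. Neighbouring sites thus differed in opposite directions. SLC7A6, a light chain that exchanges cationic for neutral amino acids (chr16:68264516-68301823, plus strand), had 6 and 5 peaks, and its 3 shared peaks differed by -0.55, 0.36 and 0.88.

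The glutamine and neutral amino acid transporter SLC38A2 lies 88170 nt from SLC38A1 on the same strand (chr12:46358188-46372773). The gene is known to be induced when amino acids are scarce. With 6 DMSO and 11 AVJ16 peaks it had far fewer than its neighbour. The strongest site began at the end of the coding sequence and ran 147 nt into the 3'UTR, with a best log2 enrichment of 4.45 with DMSO and 4.65 with AVJ16. The other sites lay between 3.04 and 3.59, and most of these were in 1 list only, 3 in the DMSO list and 4 in the AVJ16 list.

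SLC1A4 exchanges alanine, serine and cysteine (chr2:64988477-65023865, plus strand). Its peaks went from 7 with DMSO to 12 with AVJ16 and the covered share of its 2722 nt 3'UTR from 20.2% to 34.0%. All 7 DMSO peaks were shared, 6 of them with a higher value with AVJ16. The median difference was 0.30, above that of 93.5% of genes with at least 5 shared peaks, but its interval of -0.14 to 0.98 was wide and included 0. The peaks with the largest differences were neighbours, at chr2:65021858-65021931, from 3.09 to 4.06, and chr2:65021932-65022056, from 4.05 to 5.02. The first pair overlapped by only 21 nt, and the rest of its AVJ16 peak lay over the second DMSO peak, at nearly the same value. The peak borders thus differed between the lists here. When 50% of both peaks had to overlap, 5 shared peaks were left, with a median of 0.29. At the strongest peak, chr2:65022088-65022182, the values were close, 4.92 with DMSO and 5.04 with AVJ16. The 4 sites in the AVJ16 list alone had best values of 3.03 to 3.91.

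SLC1A3 is a transporter of glutamate and aspartate (chr5:36596588-36688334, plus strand). Opposite to SLC1A4, it went from 7 to 4 peaks and from 28.0% to 17.7% of its 2068 nt 3'UTR. The site printed above, 484 to 574 nt after the last coding base, had a log2 enrichment of 5.02 with DMSO and 3.51 with AVJ16. The difference of -1.51 was the lowest of all transporter peaks, but the -log10 p values were modest, 8.19 with DMSO and 4.43 with AVJ16. At a -log10 p of at least 5 this pair dropped out, and the SLC1A3 median went from -0.43 to -0.01. A site near the beginning of the 3'UTR went from 3.88 to 3.03. The site near its end, 1850 to 2005 nt after the last coding base, had 4.50 with DMSO and 5.11 with AVJ16, where it was the strongest of the gene. SLC1A1, another glutamate transporter, had 2 peaks with DMSO and 1 with AVJ16, and the shared one went from 3.83 to 3.70.

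**Figure D4:**
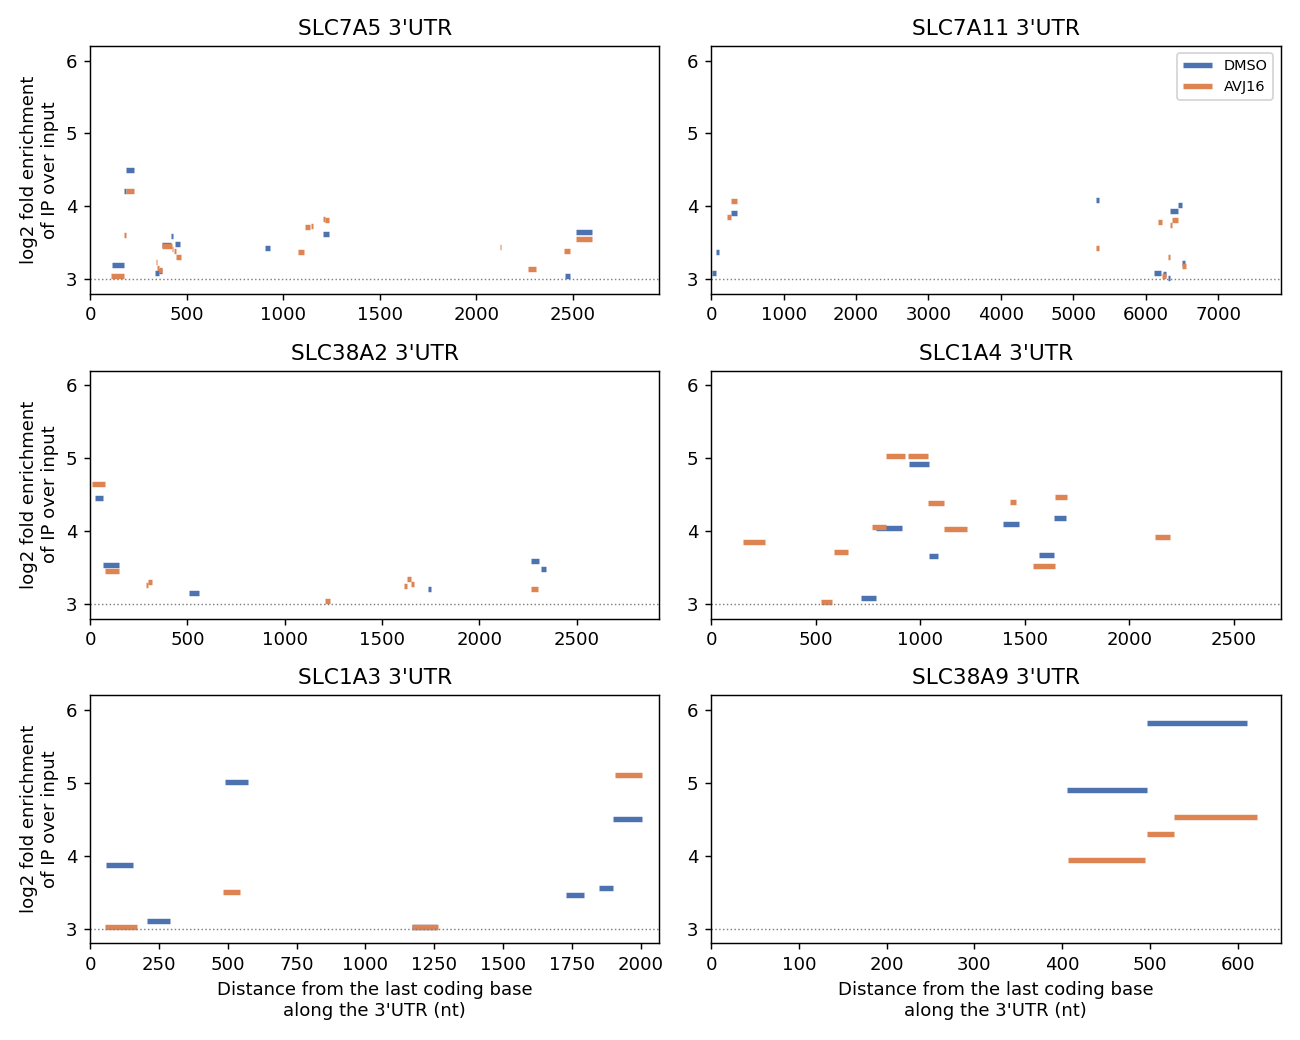
IGF2BP1 peaks along the 3'UTRs of 6 further transporters, each a line over its bases (x axis, distance from the last coding base in nt) at its log2 fold enrichment (y axis), in blue with DMSO and orange with AVJ16, drawn last. In SLC38A9 all AVJ16 lines lie below both DMSO lines, and in SLC1A3 the strongest site is near 500 nt with DMSO and near the end of the 3'UTR with AVJ16.

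SLC38A9 is a lysosomal transporter that signals arginine to mTORC1 (chr5:55625845-55773194, minus strand). All its peaks formed 1 site of 217 nt near the end of a short 3'UTR of 649 nt. The DMSO peaks had log2 enrichments of 5.83 and 4.90, and the AVJ16 peaks had 4.53, 4.29 and 3.95. The values of the lists did not overlap, and the shared peaks were lower, with differences of -1.30 and -0.96. The covered length was nearly equal, 31.6% of the 3'UTR with DMSO and 33.0% with AVJ16. SLC36A1, a proton-coupled exporter of small amino acids from the lysosome (chr5:151437046-151492379, plus strand), went from 6 peaks to 2, with a best value of 3.97 with DMSO and 3.54 with AVJ16. SLC38A7, a lysosomal glutamine transporter, had 3 peaks in each list, and its 2 shared peaks differed by -0.82 and 0.39.

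SLC38A10 had intronic peaks only, 2 with DMSO and 3 with AVJ16, with values of 3.03 to 3.35. SLC38A6 was the transporter found with AVJ16 alone, with 1 coding peak at chr14:61045354-61045430. Its log2 enrichment was 3.46 and its -log10 p was 5.48, where the lists have a limit of 3 for both measures.

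The unbound genes included well known partners of the bound ones. SLC3A2, the heavy chain that carries SLC7A5, SLC7A6 and SLC7A11 to the cell surface, had no peak in either list and a 3'UTR of 170 nt. The glutamine transporter SLC1A5 had none in a 3'UTR of 630 nt. SLC1A2, a glutamate transporter of astrocytes, had none in a 3'UTR of 9692 nt, the longest of the 40 genes. Scarce RNA and binding under the limits of the lists cannot be told apart for a gene with no peak.

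**Figure D5:**
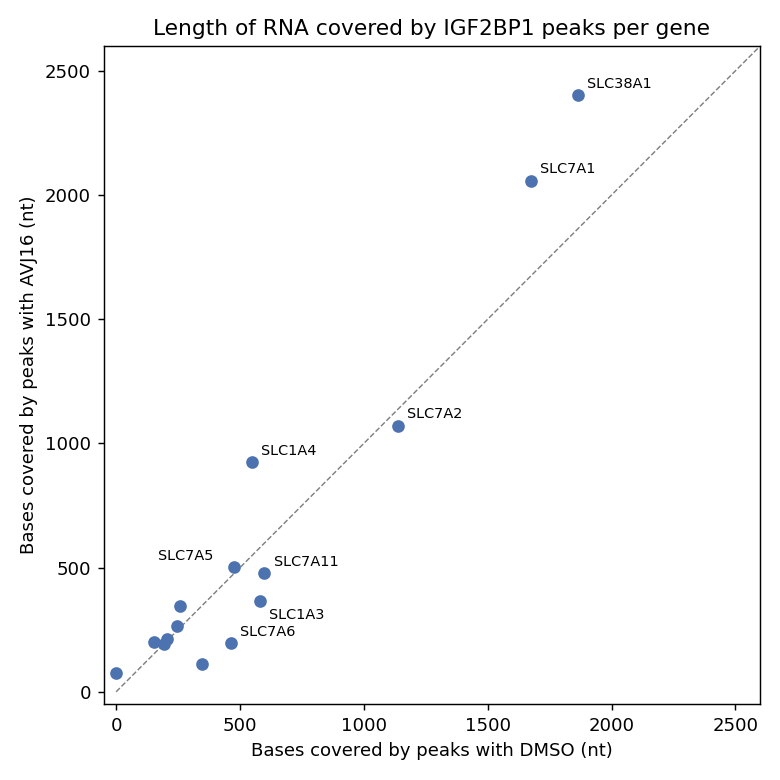
Bases under IGF2BP1 peaks per transporter gene with DMSO (x axis, nt) and with AVJ16 (y axis, nt), 1 point per gene with a peak, with the dashed line at equality. SLC38A1 (1864 and 2403 nt), SLC7A1 (1676 and 2058 nt) and SLC1A4 lie above the line, and SLC1A3 and SLC7A6 below it.

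GGAC and the CAU motifs (CAUA, CAUC or CAUU) were counted on the RNA strand alone in 3'UTR peaks widened by 25 nt on each side. The C that ends GGAC may also begin a CAU motif. GGAC was in 22.7% of the transporter windows with DMSO and 22.2% with AVJ16, against 23.1% of all 3'UTR windows in both lists. SLC38A1 stood low, with GGAC in 1 of 41 windows with DMSO (2.44%, 0.432 to 12.6%) and 3 of 60 with AVJ16 (5%), and SLC7A1 had it in 10 of 38 (26.3%) and 16 of 54 (29.6%). Windows of adjoining peaks overlap, so 1 GGAC can count in several of them. The SLC7A1 bases under peaks of either list held 6. A CAU motif was in 73.3% of transporter windows with DMSO and 69.1% with AVJ16, against 83.5% and 81.7% of all. Transporter 3'UTR peaks were shorter, with medians of 47 and 39 nt against 69 and 62 nt, so their windows held fewer bases. In SLC38A1 80.5% of DMSO windows held a CAU motif and in SLC7A1 57.9%. Per 100 nt, the SLC38A1 3'UTR held 1.67 CAU motifs under peaks of either list and 1.10 outside them, and SLC38A9 held 2.30 and 0.463. SLC7A5 held 0.187 under peaks and 0.621 outside. GGAC per 100 nt was 0.275 under SLC7A1 peaks and 0.588 outside, and 0.122 and 0.289 in SLC38A1. In SLC1A4 the order was the other way, with 0.779 and 0.472. A motif is a match of letters and not a binding site.

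Genes that act with the transporters were described from 3 lists, to be read beside the 25.8% of all protein-coding genes bound with DMSO and 23.2% with AVJ16, and the 20.1% of all shared peaks that were lower and 12.6% that were higher. Among 34 other carriers of amino acids or small peptides, 15 had a peak with DMSO and 13 with AVJ16. Of these genes, 9 had more peaks with DMSO, 1 had more with AVJ16 and 5 had equal numbers. Their 41 shared peaks had a median difference of -0.05, with 7 lower and 4 higher. The gene with more peaks in AVJ16 was SLC6A6, the taurine transporter, with 5 and 8. SFXN1, a mitochondrial serine transporter, went from 12 to 7 peaks with a median difference of -0.36 over 8 shared peaks. In the list for sensing of amino acids by mTORC1, 13 of 37 genes were bound in each list, and the median difference was 0.15 (-0.27 to 0.23) over 31 shared peaks, with 5 lower and 1 higher. SESN3, a member of the sestrin family of mTORC1 inhibitors, had the most peaks, 18 and 15. In the list for amino acid response and synthesis, 16 of 36 genes were bound with DMSO and 15 with AVJ16, with a median difference of -0.14 (-0.26 to -0.02) over 53 shared peaks, 7 lower and 2 higher. Its most bound genes were PSAT1, of serine synthesis, with 21 and 18 peaks and a median of -0.24, and GLUL, glutamine synthetase, with 12 and 11 peaks and a median of -0.20. GCLM, a subunit of the enzyme that starts glutathione synthesis, had 4 peaks with DMSO, the best at 4.54, and none with AVJ16. EIF2AK4, the kinase GCN2 that senses uncharged tRNA, had 3 with AVJ16 and none with DMSO.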

How the data were processed

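IGF2BP1 eCLIP was performed on H1299 cells given DMSO or AVJ16. According to the methods, reads were trimmed with cutadapt, reads from repeats were discarded, the rest were mapped with STAR, PCR duplicates were removed, peaks were called with CLIPper, and each peak was normalised to its SMInput. Replicates were merged by IDR, per the labels, on hg38. Each deposited list gives a log2 fold enrichment of IP over SMInput and a -log10 p value (deposited with an upper limit of 400) per peak. Every deposited log2 value and every -log10 p is at least 3, which are the limits the study gives for a significant peak, although its methods section writes the first as a fold and not on the log2 scale. Coordinates in the lists were used after conversion to a first base of 1.

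Peaks were assigned by strand to GENCODE release 44 genes, in the order coding sequence, 3'UTR, 5'UTR, other exon and intron, with Python 3.11.15, numpy 2.4.6 and scipy 1.17.1, and plotted with matplotlib 3.10.9. The methods name another GENCODE release. Distances were counted along the MANE Select transcript from the last coding base, so that the stop codon is part of the 3'UTR. A DMSO peak was shared if it overlapped an AVJ16 peak by at least 1 nt, and a difference over 0.5 was counted as higher or lower. For 12 transporter DMSO peaks the AVJ16 partner was also that of another DMSO peak. Intervals for shares are Wilson intervals and those for medians come from order statistics. The scripts were tested on simulated peaks. No test was run because the lists give no value per replicate. The depth is unknown. The genes, lists and motifs were chosen with earlier results of these data known. Genes with at least 5 peaks in either list, a best log2 enrichment of at least 5, or peaks in 1 list only were named with values, and other bound genes were named briefly. Of the list names, SLC66A4 matched no gene of the annotation. Alternatives changed the limits, the pairing and the genes included, as given in the closing section.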

Additional observations from a re-analysis of the deposited data

How the results depend on the processing

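No paired analysis was possible because the lists give no value per replicate. At a log2 enrichment of at least 4, 52 DMSO and 69 AVJ16 transporter peaks remained, 98.6% of the AVJ16 peaks were in 3'UTRs, 69.2% of DMSO and 62.3% of AVJ16 peaks were shared, and 4 shared peaks were lower and 8 higher. The median difference then turned to 0.61 in SLC1A3 and 0.20 in SLC38A2 (1 shared peak each) and to 0.045 in SLC7A2. At a -log10 p of at least 5 that of SLC7A6 turned to -0.10 over 2 peaks. Joining touching peaks left 95 DMSO and 121 AVJ16 peaks. When sharing required 50% of both peaks to overlap, 69.0% of DMSO and 51.2% of AVJ16 peaks were shared. Pairing from the AVJ16 peaks gave SLC7A2 a median of 0.18, and centring the differences on the median of all shared peaks gave SLC7A2 0.045 and SLC7A11 0.029. With a limit of 1, 4 peaks were lower and 1 higher. Without SLC38A1 there were 141 AVJ16 peaks, 95.04% of them in 3'UTRs. Alternatives chosen after seeing the data left out SLC7A1, with 15 higher peaks, or took the difference per nucleotide covered in both lists, which turned SLC38A7 to 0.39. The median over all transporter peaks was 0.17 when centred and 0.069 without SLC7A1. With the -log10 p limit of 5 it was -0.01 in SLC1A3, as it was per nucleotide, and 0.51 in SLC1A4. The cause of these changes was not tested. The signs for SLC7A2, SLC7A11, SLC7A6, SLC38A2, SLC38A7 and SLC1A3 thus depend on the setting. Of 93 values for the transporters as a group, 77 stayed within their 95% interval or, for counts, within 1.5 times. Of 118 gene medians, 110 kept their sign. These tallies include values that could not change. Leaving out peaks in exons of other genes removed no transporter peak, and leaving out intron peaks removed those of SLC38A10 alone. Genes left with no shared peak under a setting were not counted.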
